A study of Mus musculus with 4 samples.

Results

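Tight junctions seal the space between neighbouring epithelial cells, and the 10 genes described here encode their best known parts in the colon: the claudins *Cldn1*, *Cldn2*, *Cldn3*, *Cldn4*, *Cldn7*, *Cldn8*, *Cldn15* and *Cldn23*, occludin (*Ocln*) and the scaffold protein ZO-1 (*Tjp1*). They were taken by name, with earlier results of these data known, and were read from a table of 36144 gene names. With butyrate, *Cldn4* was higher and its neighbour *Cldn3* lower at both times, so that the ratio of *Cldn4* to *Cldn3* counts was 0.990 against 0.617 at 48 h and 1.11 against 0.678 at 72 h. The summed counts of the pore-forming claudins were 1.20-fold of untreated relative to those of the sealing claudins at 48 h and 0.897-fold at 72 h, but each direction reversed when 1 sealing claudin was left out. *Cldn1* had no count in any library. Of the other 9 genes, 0 differed by as much as 2-fold with butyrate, beside 10.0% of all compared genes at 48 h and 8.31% at 72 h. For 9 genes, 0 lies close to these shares.

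Claudins are small membrane proteins whose outer loops meet those of the next cell and set which ions and solutes can slip between cells. Some tighten the barrier, whereas others form charge-selective pores, and the mix of both kinds along the crypt sets how leaky the colon is to sodium and water. Occludin is a membrane protein of the MARVEL family that tunes the passage of larger solutes, and ZO-1 ties claudins and occludin to the actin cytoskeleton. Butyrate, a short-chain fatty acid made by colonic bacteria, is a fuel of colonocytes and an inhibitor of histone deacetylases, and is widely studied for its effects on the epithelial barrier.

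RNA was sequenced from mouse colonoids, gel-grown cultures of colonic stem cells and their progeny, with 1 library for each of 4 conditions: untreated or given 2 mM sodium butyrate, each at day 2 and day 3. The labels of the butyrate libraries give 48 h and 72 h of treatment, and these times are used for both groups. All 4 cultures were at passage 3 and shared a medium with EGF, Noggin, R-spondin, Y-27632 and an activator of the Wnt pathway (CHIR99021). By the labels they came from a male wild-type mouse aged 24 weeks, whereas the study describes the animal as a Hes1-GFP reporter mouse; its methods kept the proximal colon and discarded the distal part. All libraries held between 20790225 and 24207840 counts. As each condition has 1 library, no difference can be set against replicate error, and every interval below is a 95% interval that covers counting error only. Epithelial markers were high throughout, with summed normalised counts of 142692 to 158458 over 8 genes. Those of other tissues were scarce, at 32.7 to 56.3 over 4 endothelial genes, 15.1 to 21.8 over 4 fibroblast genes (of which *Col3a1* had no count) and 7.16 to 24.8 over 4 immune genes.

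Counts were divided by the size factor of the library, which gives the normalised counts used below, and fold changes were taken on the log2 scale after adding 1. Genes were compared where 2 or more libraries held over 10 counts, which left 13979 genes and 9 of the 10 described here. Of these 9, 0 reached a 2-fold difference with butyrate at 48 h, where 10.0% of all compared genes did (6.94% higher and 3.08% lower), and 0 at 72 h, where 8.31% did (4.53% higher and 3.78% lower). By counting error alone, the interval of the fold change excluded 0 for 8 of 9 genes at 48 h, 3 of them higher and 5 lower, beside 60.7% of all compared genes (29.3% higher and 31.3% lower). At 72 h it excluded 0 for 8 of 9 genes, 1 of them higher and 7 lower, beside 52.3% of all genes (25.9% higher and 26.4% lower). The intervals of *Cldn8* and *Tjp1* at 72 h ended near 0, so this split into higher and lower depends on how libraries are scaled. Here and below, such intervals narrow as counts rise, and all compared genes include many of low count. The shares beside them are not matched for count level, so a larger share among the genes described may reflect their counts alone. The median log2 fold change of the 9 genes was −0.12 at 48 h and −0.24 at 72 h, and that of all compared genes was −0.01 and 0.00.

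**Figure D1:**
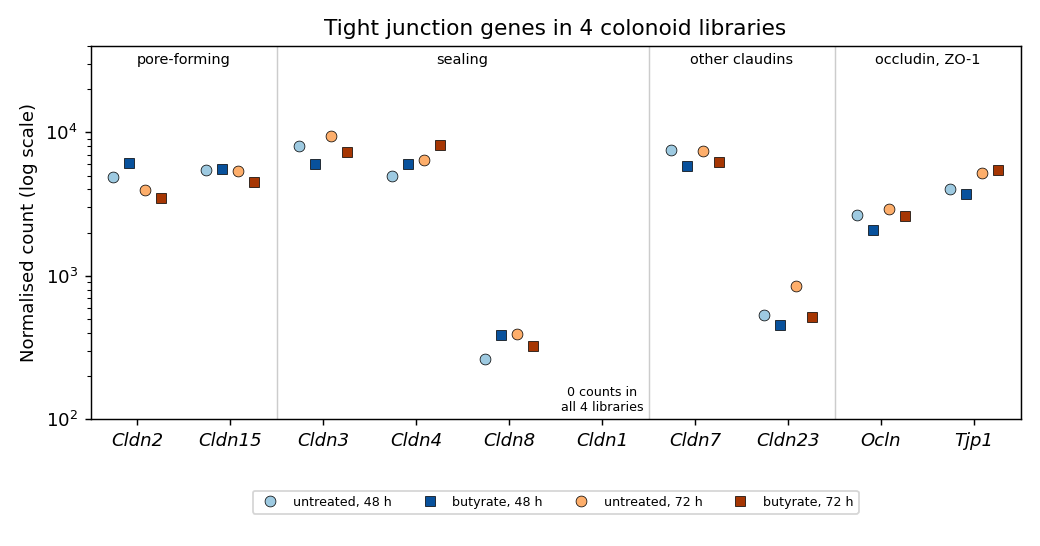
Normalised counts on a log scale for each gene in the 4 libraries, 1 point per library, with circles for untreated and squares for butyrate, pale and dark blue for 48 h and pale and dark orange for 72 h. *Cldn3* is lower and *Cldn4* higher with butyrate at both times, *Cldn8* and *Cldn23* lie far below the other detected claudins, and *Cldn1* has 0 counts.

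The pore-forming claudins were taken first. *Cldn2*, which forms pores for sodium and water and is typical of the crypt base, lies on chromosome X from 139800828 to 139811386 in the GRCm38 build. Its normalised count with butyrate was 6101, against 4878 without it, at 48 h, then 3510 against 3961 at 72 h. The butyrate library was thus the higher of its pair at 48 h and the lower at 72 h, with log2 fold changes of 0.32 (0.27 to 0.38) and −0.17 (−0.24 to −0.11). *Cldn8*, described further on, was the other gene with this turn, which 4.54% of all compared genes showed by their intervals, and no gene (0 of 9) made the opposite turn, which 5.33% did. From 48 h to 72 h *Cldn2* was lower in both arms, by −0.30 between the untreated libraries and by −0.80 between the butyrate libraries on the log2 scale, and the latter was the largest difference among all comparisons of these 9 genes. *Cldn15*, the other cation pore of the intestine, lies on chromosome 5 from 136966616 to 136975858. With butyrate it had 5593 normalised counts against 5422 at 48 h, and then 4525 against 5355 at 72 h. The 72 h butyrate library stood below the other 3, which lay close together. The log2 fold change was 0.04 (−0.01 to 0.10) at 48 h, too small to detect with these counts, and −0.24 (−0.30 to −0.18) at 72 h.

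The promoter windows of both pore-forming genes are shown for comparison with those of *Cldn3* and *Cldn4* further on. They hold 250 bases before and 50 bases after the start of the RefSeq transcript in GRCm38.p6, written 5′ to 3′ on the strand of the gene. Capitals mark matches on either strand to GGGCGG (the GC box, read as CCGCCC on the other strand), CAGGTG (an E-box bound by repressors of the Snail and Zeb families, CACCTG on the other strand) and TATAAA (the TATA box, TTTATA on the other strand). Among 32851 such windows, 35.7% held the GC box, 20.2% the E-box and 13.6% the TATA box. The *Cldn2* window, at chrX:139800558-139800857 on the plus strand, held a TATA box at position −35 from the start and neither of the other motifs. The *Cldn15* window, at chr5:136967619-136967918 on the plus strand, held 1 GC box, at position −108.
Cldn2: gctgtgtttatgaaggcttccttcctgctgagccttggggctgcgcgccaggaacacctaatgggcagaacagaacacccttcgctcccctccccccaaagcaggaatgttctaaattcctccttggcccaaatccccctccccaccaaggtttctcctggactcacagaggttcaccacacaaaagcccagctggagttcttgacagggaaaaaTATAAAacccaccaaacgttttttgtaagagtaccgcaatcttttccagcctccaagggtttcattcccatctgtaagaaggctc
Cldn15: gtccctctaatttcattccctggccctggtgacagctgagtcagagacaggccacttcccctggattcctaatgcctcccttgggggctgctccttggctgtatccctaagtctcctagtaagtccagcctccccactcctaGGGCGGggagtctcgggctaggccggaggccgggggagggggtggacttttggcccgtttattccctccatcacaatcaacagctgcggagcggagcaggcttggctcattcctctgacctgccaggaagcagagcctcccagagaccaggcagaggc

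Among the sealing claudins, *Cldn3* and *Cldn4*, which tighten the barrier, are neighbours on chromosome 5 of GRCm38. *Cldn4* runs on the minus strand from 134945119 to 134946934 and *Cldn3* on the plus strand from 134986214 to 134987472, 39.3 kb apart with 0 protein-coding genes in between. *Cldn3* had 6052 normalised counts with butyrate against 7989 without it at 48 h, then 7287 against 9503 at 72 h. Both butyrate libraries were below both untreated libraries. The log2 fold changes of −0.40 (−0.45 to −0.35) and −0.38 (−0.43 to −0.34) correspond to 0.758-fold and 0.767-fold of untreated. Of all compared genes, 15.6% had a lower value at 48 h and 14.3% at 72 h. An antisense gene, *Wbscr25*, overlaps *Cldn3* in the annotation, and whether the counting used strand is not given in the sources used here.

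*Cldn4* moved the other way. Butyrate-treated colonoids had 5990 normalised counts against 4926 at 48 h, then 8100 against 6441 at 72 h. The butyrate library was the higher of each pair, although the untreated library at 72 h was also above the butyrate library at 48 h. The log2 fold changes of 0.28 (0.23 to 0.34) and 0.33 (0.28 to 0.38) correspond to 1.22-fold and 1.26-fold of untreated. Of all compared genes, 75.1% had a lower value at 48 h and 82.4% at 72 h. *Cldn4* was the only one of the 9 genes whose interval lay above 0 at both times, beside 12.9% of all compared genes. Between the untreated libraries *Cldn4* was higher at 72 h by 0.39 on the log2 scale, a larger difference than those with butyrate. This order depends on the scaling, since with total count scaling it was 0.31 against 0.38 with butyrate at 72 h.

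The ratio of 2 genes within a library does not depend on how libraries are scaled to each other. At 48 h *Cldn4* had 0.990 counts for each count of *Cldn3* with butyrate (0.957 to 1.02), against 0.617 without it (0.595 to 0.639). At 72 h it had 1.11 (1.08 to 1.15) against 0.678 (0.657 to 0.700). Butyrate thus went with a 1.61-fold higher ratio at 48 h (1.53 to 1.69) and a 1.64-fold higher ratio at 72 h (1.57 to 1.72). From 48 h to 72 h the ratio differed far less, by 1.10-fold (1.05 to 1.15) between the untreated and by 1.12-fold (1.07 to 1.18) between the butyrate libraries. This pair was singled out after its values were seen. As shares of the counts of all 8 claudins, *Cldn3* made up 19.9% with butyrate (Wilson interval 19.5% to 20.3%) against 25.3% (24.8% to 25.8%) at 48 h, then 23.9% (23.4% to 24.4%) against 28.0% (27.5% to 28.5%) at 72 h. *Cldn4* made up 19.7% (19.3% to 20.1%) against 15.6% (15.2% to 16.0%) at 48 h, then 26.6% (26.1% to 27.1%) against 19.0% (18.6% to 19.4%) at 72 h.

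Their promoter windows are printed because the 2 neighbours moved apart. The *Cldn3* window, at chr5:134985964-134986263 on the plus strand, held 1 GC box at position −236 and 1 E-box at position 32. The *Cldn4* window, at chr5:134946885-134947184 on the minus strand, held 2 GC boxes, at positions −44 and −5, and 2 E-boxes, at positions −14 and 12. The marked matches do not overlap one another, and they describe the letters of the windows and not binding. *Cldn7* and *Ocln*, both lower with butyrate, each had a window with 1 GC box and 2 E-boxes and another with fewer matches. Any part of these motifs in the changes was not tested.
Cldn3: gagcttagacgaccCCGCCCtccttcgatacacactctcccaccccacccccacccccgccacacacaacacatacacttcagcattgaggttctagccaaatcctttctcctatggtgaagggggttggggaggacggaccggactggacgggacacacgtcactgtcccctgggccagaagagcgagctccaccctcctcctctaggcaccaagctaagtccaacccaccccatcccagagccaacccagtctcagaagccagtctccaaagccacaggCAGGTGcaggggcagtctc
Cldn4: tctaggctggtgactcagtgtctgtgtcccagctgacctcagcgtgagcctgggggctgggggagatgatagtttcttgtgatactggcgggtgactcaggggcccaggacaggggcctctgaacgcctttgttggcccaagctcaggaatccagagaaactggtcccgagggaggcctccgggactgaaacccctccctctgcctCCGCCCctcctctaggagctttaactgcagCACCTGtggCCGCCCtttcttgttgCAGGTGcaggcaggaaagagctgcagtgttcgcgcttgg

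*Cldn8*, a sealing claudin of the distal colon that limits sodium leak, had the fewest counts of the detected genes. It lies on chromosome 16 from 88560828 to 88563183. With butyrate it had 425 counts against 257 at 48 h, then 302 against 395 at 72 h, or 386 against 263 and 326 against 390 after normalisation. The untreated library at 48 h stood below the other 3. Its log2 fold changes were 0.55 (0.33 to 0.78) and −0.26 (−0.48 to −0.04). With libraries scaled by total count the latter was −0.21, and whether its interval is clear of 0 depends on the scaling. Between the untreated libraries *Cldn8* was 0.57 (0.34 to 0.80) higher at 72 h on the log2 scale, a difference of similar size to that with butyrate at 48 h. *Cldn1*, a sealing claudin on chromosome 16 from 26356642 to 26371841, had 0 counts in each library. If the authors' transcript index covered the gene, which was not checked, a count of 0 allows a level of up to 3 counts, or 0.124 to 0.144 CPM (counts scaled to an equal library total), where *Cldn8* had 11.9 to 17.6 CPM. The log2 fold changes of the 3 detected sealing claudins thus spread from −0.40 to 0.55 at 48 h, with a median of 0.28, and from −0.38 to 0.33 at 72 h, with a median of −0.26. Those of the 2 pore-forming claudins had medians of 0.18 and −0.21, so that the medians placed the classes in the opposite order to the summed counts at both times.

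**Figure D2:**
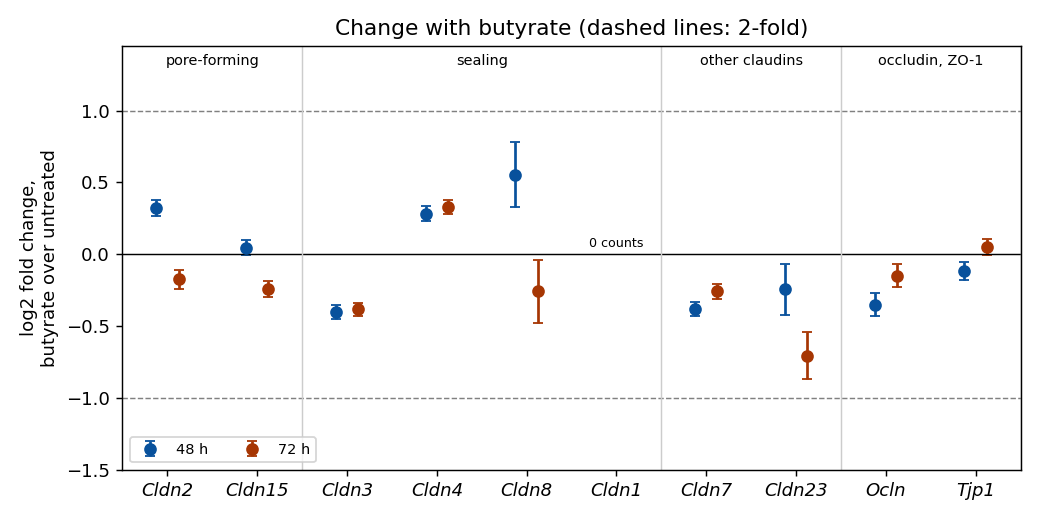
Log2 fold change of butyrate over untreated for each gene at 48 h (blue) and 72 h (orange), with bars for the exact 95% interval on the pair of counts and dashed lines at a 2-fold change. *Cldn4* lies above 0 and *Cldn3*, *Cldn7*, *Cldn23* and *Ocln* lie below 0 at both times. *Cldn2* and *Cldn8* change sides with bars clear of 0. The points of *Cldn15* and *Tjp1* also change sides, but with a bar across 0 at 48 h and at 72 h, respectively. No gene reaches a dashed line.

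The contrast between pore-forming and sealing claudins was made on summed counts, with *Cldn2* and *Cldn15* set against *Cldn1*, *Cldn3*, *Cldn4* and *Cldn8*. At 48 h there were 0.941 pore-forming counts for each sealing count with butyrate (0.919 to 0.964), against 0.782 without it (0.762 to 0.802). At 72 h there were 0.511 (0.497 to 0.526) against 0.570 (0.556 to 0.585). Relative to untreated, the ratio with butyrate was 1.20-fold at 48 h (1.16 to 1.25) and 0.897-fold at 72 h (0.863 to 0.931). Both libraries at 72 h were below both libraries at 48 h, by 0.730-fold (0.703 to 0.757) between the untreated and 0.543-fold (0.524 to 0.564) between the butyrate libraries, larger differences than those with butyrate. Each direction rested on 1 sealing claudin: without *Cldn3* the 48 h value was 0.924, and without *Cldn4* the 72 h value was 1.12. Pair by pair, *Cldn2* gained on *Cldn3* with butyrate by 1.65-fold (1.57 to 1.74) at 48 h and 1.16-fold (1.09 to 1.22) at 72 h. Against *Cldn4* it was level at 48 h, at 1.03-fold (0.976 to 1.08), and lost ground at 72 h, at 0.705-fold (0.665 to 0.746). *Cldn15* likewise gained on *Cldn3*, by 1.36-fold (1.30 to 1.43) and 1.10-fold (1.05 to 1.16), and lost ground to *Cldn4*, at 0.848-fold (0.805 to 0.894) and 0.672-fold (0.638 to 0.708). From 48 h to 72 h both genes lost ground to both sealing claudins in either arm. For *Cldn2* the untreated and butyrate libraries gave 0.683-fold and 0.478-fold against *Cldn3*, and 0.621-fold and 0.425-fold against *Cldn4*. For *Cldn15* they gave 0.830-fold and 0.672-fold against *Cldn3*, and 0.755-fold and 0.598-fold against *Cldn4*.

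Claudins differ in where along the crypt they are made, and in bulk libraries fewer cells of a type and less RNA per cell cannot be told apart. Of 7 colonocyte markers, the interval lay above 0 for 5 and below 0 for 1 at 48 h, and below 0 for 6 and above 0 for none (0) at 72 h. Their summed normalised count with butyrate was 100369 against 93186 at 48 h, then 73343 against 124969 at 72 h. Of 4 stem cell markers, 3 were lower and 1 higher by the same measure at 48 h and 4 were higher at 72 h, with sums of 13275 against 18188, then 20804 against 12733. Of 7 goblet cell markers, 2 were higher and 3 lower at 48 h and 6 were lower at 72 h, with sums of 91656 against 113153, then 89924 against 165950. Of 4 proliferation markers, 3 were higher at 48 h and 4 at 72 h, with sums of 28682 against 26718, then 35307 against 26117. Of 4 enteroendocrine markers, 1 was higher at 48 h and 4 were lower at 72 h, with sums of 8861 against 7412, then 5097 against 9342. Of 3 tuft cell markers, 0 were higher or lower at 48 h and 3 were lower at 72 h, with sums of 250 against 306, then 103 against 345. The summed colonocyte and enteroendocrine markers were, like *Cldn2*, higher at 48 h and lower at 72 h with butyrate. The summed stem cell markers were lower and then higher. At 48 h the colonocyte sum joined opposite differences, *Car1* with 44920 against 20390 and *Ceacam1* with 38676 against 61945. In the goblet sum at 48 h *Muc2* had 52053 against 73062, while *Tff3* and *Clca1* were higher with butyrate. The sums thus follow their most abundant genes. Among all compared genes, 29.3% were higher and 31.3% lower by the same measure at 48 h, and 25.9% and 26.4% at 72 h. The part of the markers in these results was not tested.

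**Figure D3:**
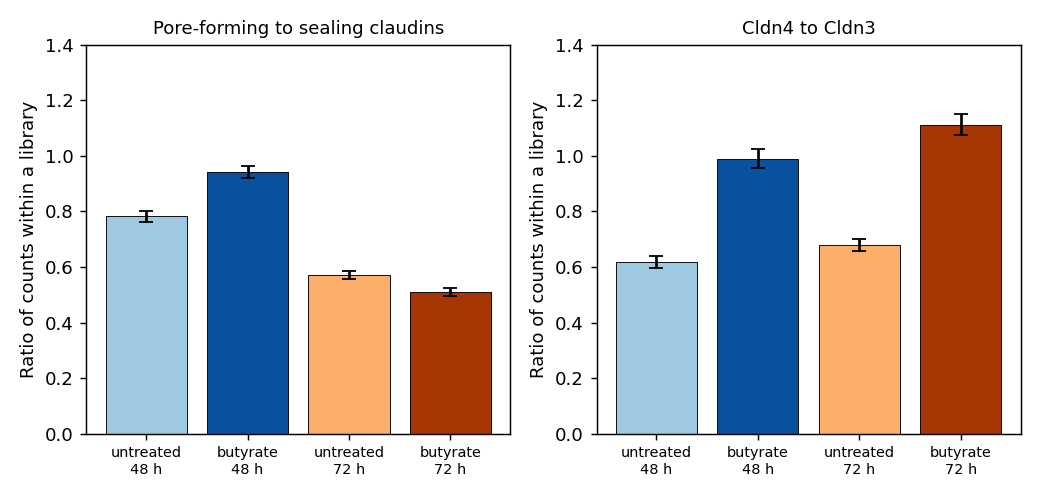
Ratios of counts within each library, for the pore-forming claudins *Cldn2* and *Cldn15* over the sealing claudins *Cldn1*, *Cldn3*, *Cldn4* and *Cldn8* (left) and for *Cldn4* over *Cldn3* (right), with exact 95% intervals as bars. The left ratio is higher with butyrate at 48 h (0.941 against 0.782) and lower at 72 h (0.511 against 0.570), and the right ratio is higher with butyrate at both times.

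*Cldn7* and *Cldn23* were kept apart from both classes, since their roles are less settled. *Cldn7*, on chromosome 11 from 69964779 to 69967885, is also found along the lateral membrane, where it helps to hold the epithelium together. It had 5809 normalised counts with butyrate against 7571 at 48 h, then 6205 against 7424 at 72 h. As with *Cldn3*, both butyrate libraries were below both untreated libraries, with log2 fold changes of −0.38 (−0.43 to −0.33) and −0.26 (−0.31 to −0.21). The ratio of *Cldn7* to *Cldn3* counts differed by 1.01-fold with butyrate at 48 h (0.966 to 1.06) and by 1.09-fold at 72 h (1.04 to 1.14). From 48 h to 72 h this ratio differed by 0.824-fold between the untreated and 0.887-fold between the butyrate libraries. *Cldn23*, on chromosome 8 from 35824712 to 35826559, is a claudin of differentiated surface cells. Butyrate-treated colonoids had 499 counts against 525 at 48 h, then 481 against 859 at 72 h, or 453 against 537 and 519 against 848 after normalisation. The untreated library at 72 h stood above the other 3. Its log2 fold changes were −0.25 (−0.43 to −0.07) and −0.71 (−0.87 to −0.54), the latter being the largest with butyrate among the 9 genes, and 6.57% of all compared genes had a lower value. Between the untreated libraries *Cldn23* was 0.66 (0.50 to 0.82) higher at 72 h.

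Occludin was lower with butyrate at both times and ZO-1 nearly level. *Ocln*, on chromosome 13 from 100496507 to 100552718, had 2085 normalised counts with butyrate against 2661 at 48 h, then 2626 against 2911 at 72 h. Both butyrate libraries were below both untreated libraries, the difference between the 72 h butyrate and the 48 h untreated library being slight. The log2 fold changes were −0.35 (−0.43 to −0.27) and −0.15 (−0.23 to −0.07). *Tjp1*, on chromosome 7 from 65296165 to 65527781, had 3696 against 4010 at 48 h, then 5425 against 5229 at 72 h. The libraries at 72 h were above those at 48 h in both arms. Its log2 fold changes were −0.12 (−0.18 to −0.05) and 0.05, where the interval ran from just below 0 to 0.11. *Ocln* thus lost ground to *Tjp1* with butyrate, at 0.850-fold (0.791 to 0.914) at 48 h and 0.869-fold (0.813 to 0.929) at 72 h. The ratio differed about as much from 48 h to 72 h. It was 0.839-fold (0.784 to 0.898) between the untreated and 0.858-fold (0.799 to 0.921) between the butyrate libraries. With *Cldn3*, *Cldn7* and *Cldn23*, *Ocln* was one of 4 genes of the 9 whose intervals lay below 0 at both times, beside 13.6% of all compared genes.

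The genes also differed between the times, in comparisons that share their libraries with those above. Between the untreated libraries, the interval lay above 0 at 72 h for 6 of 9 genes and below 0 for 1, *Cldn2*, beside 22.4% and 20.2% of all compared genes. Between the butyrate libraries it lay above 0 for 6 and below 0 for 3, *Cldn2*, *Cldn8* and *Cldn15*, beside 30.0% and 31.4%. None (0) of the 9 differed 2-fold in either, where 4.49% (2.66% higher and 1.82% lower) and 8.62% (3.67% and 4.95%) of all compared genes did. *Cldn4*, at 0.39 and 0.44 on the log2 scale, *Tjp1*, at 0.38 and 0.55, *Cldn3*, at 0.25 and 0.27, *Cldn23*, at 0.66 and 0.20, and *Ocln*, at 0.13 and 0.33, were higher at 72 h in both arms. With libraries scaled by total count the untreated difference was 0.05 for *Ocln*. For *Cldn15* it was −0.10 in place of −0.02, and for *Cldn7* −0.11 in place of −0.03. The counts of 6 and 1 thus depend on the scaling. Between the butyrate libraries the *Cldn23* interval began at 0.01, and total count scaling gave 0.17 in place of 0.20. The count of 6 there depends on the scaling as well.

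For levels between genes, normalised counts were divided by the length of all exons of the gene in kb. *Cldn3* was the highest of the 10 in every library, with 4807 to 7548 normalised counts per kb. It was followed by *Cldn7*, with 2982 to 3886, *Cldn4*, with 2712 to 4460, *Cldn15*, with 2131 to 2633, and *Cldn2*, with 1056 to 1835. *Cldn4* came behind *Cldn7* in the untreated libraries and ahead of it in the butyrate libraries at both times. *Ocln*, with 494 to 689, and *Tjp1*, with 473 to 695, had overlapping intervals in the butyrate library at 48 h and the untreated library at 72 h. *Cldn23*, with 245 to 459, and *Cldn8*, with 112 to 166, came last among the detected genes. The order of the first 5 depended on the length used, since with the median length of the coding transcripts the mean of *Cldn2* was 6110 instead of 1387 per kb and *Cldn2* or *Cldn7* came first. The order of *Cldn23* and *Cldn8* below all other detected genes did not.

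The other genes of the tight junction were followed in 4 lists of 57 names, 54 of them matched and 39 compared. *Magi2*, which encodes a scaffold protein of the junction, was the 1 gene past 2-fold, lower at both times, beside 3.08% and 3.78% of all compared genes. It had 14 counts with butyrate against 28 at 48 h, then 10 against 43 at 72 h, and log2 fold changes of −1.11 (−2.21 to −0.20) and −1.88 (−3.13 to −0.96). With a pseudocount of 5 it was no longer past 2-fold at 48 h, and a filter at a mean count of 50 removed it. By counting error, 7 of the 39 were higher and 18 lower with butyrate at 48 h, and 8 were higher and 14 lower at 72 h, beside 29.3% and 31.3%, then 25.9% and 26.4%, of all compared genes, with median log2 fold changes of −0.10 and 0.00.

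Of the 15 matched other claudins, 2 were compared. *Cldn14*, a claudin that limits cation passage, had 225 counts against 117 at 48 h, then 80 against 59 at 72 h, with log2 fold changes of 0.77 (0.44 to 1.11) and 0.56 (0.07 to 1.08). *Cldn12* differed by −0.24 and −0.38. Of the remaining 13, *Cldn16*, *Cldn17*, *Cldn22* and *Cldn24* had no count in any library and none had more than 16 counts in any. *Cldn5*, the claudin of endothelium, had 1 count in a single library.

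Of 5 compared MARVEL and tricellular genes, 4 had intervals below 0 at both times, beside 13.6% of all compared genes. *Marveld2* (tricellulin), which closes the corners of cells, had 650 normalised counts with butyrate against 1127 at 48 h, then 752 against 1026 at 72 h. Its log2 fold changes of −0.79 (−0.93 to −0.66) and −0.45 (−0.59 to −0.31) made it lower in both butyrate libraries than in both untreated libraries. *Marveld3*, named after its values were seen, differed by −0.56 and −0.37, *Lsr* (angulin-1), which recruits tricellulin, by −0.51 and −0.37, and *Ildr1* (angulin-2) by −0.19 and −0.40. All intervals of these 4 genes excluded 0, whereas *Ildr2*, with 5 to 20 counts, had intervals that included 0. The list's medians were −0.56 and −0.37.

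Of 6 compared genes of the JAM family, which are adhesion molecules of the immunoglobulin type, the interval lay above 0 for 1 and below 0 for 1 at each time, no larger a share than among all compared genes (29.3% and 31.3% at 48 h, 25.9% and 26.4% at 72 h). *Igsf5* (JAM4) differed by −0.28 and −0.31, and *Cxadr*, the coxsackievirus and adenovirus receptor, by 0.07 and 0.07. *Jam2*, *Clmp* and *Esam* had at most 61 counts, and their intervals included 0. *F11r* (JAM-A) differed by 0.22 (0.16 to 0.27) and 0.03 (−0.02 to 0.09) and was named after its values were seen.

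Of 26 compared plaque and polarity genes, 5 were higher and 12 lower at 48 h, and 6 were higher and 8 lower at 72 h, beside the same shares of all compared genes. *Ybx3*, which encodes a transcription factor held at the junction by ZO-1, differed by 0.48 (0.44 to 0.52) at 48 h and −0.02 (−0.06 to 0.02) at 72 h. *Amotl2* differed by −0.91 (−1.17 to −0.66) and 0.33 (0.18 to 0.49), and *Amotl1* by −0.01 and 0.75. The myosin kinase gene *Mylk* differed by 0.29 (0.09 to 0.49) and −0.68 (−0.86 to −0.50). *Pard6g* differed by −0.04 and 0.80, and *Pard6a* by 0.38 and 0.34 with intervals that included 0. Of 3 plaque genes named after their values were seen, *Tjp3* (ZO-3) differed by −0.47 and −0.35 and cingulin (*Cgn*) by −0.39 and −0.15, whereas paracingulin (*Cgnl1*) differed by 0.24 and 0.21.

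**Figure D4:**
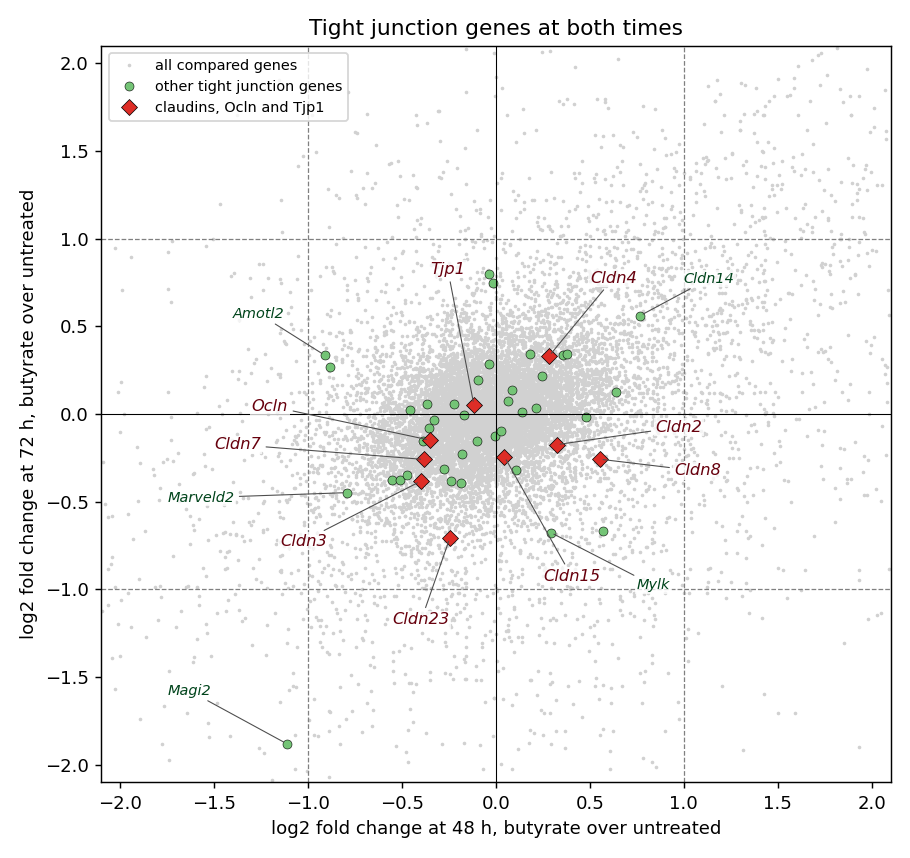
Log2 fold change of butyrate over untreated at 48 h (horizontal) against 72 h (vertical) for claudins, *Ocln* and *Tjp1* (red), other tight junction genes (green) and all compared genes (grey), with dashed lines at 2-fold; 473 of 13979 genes lie outside the axes. *Cldn4* lies in the upper right, *Cldn3*, *Cldn7*, *Cldn23*, *Ocln* and *Marveld2* in the lower left, and *Magi2* is the only tight junction gene past 2-fold at both times.

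Genes with the pattern closest to that of the most variable gene of each class were found among the 10789 genes whose mean normalised count reached 100, by the root mean square difference of centred log2 values over the 4 libraries. For *Cldn2*, whose log2 values spanned 0.80, they were *Ephx2* (0.027), *Dhrs3* (0.029) and *Slc35g2* (0.031). For *Cldn4*, with a span of 0.72, they were *Gm3226* (0.027), *Tmed8* (0.033) and *Agfg1* (0.034). For *Cldn23*, with a span of 0.90, they were *Sema6a* (0.040), *Pappa2* (0.042) and *Plagl1* (0.053). The likeness is a description over 4 libraries.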

How the data were processed

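Poly-A RNA of 4 colonoid cultures was sequenced, 1 library per condition. The authors deposited estimated counts per gene, rounded to whole numbers, which they made by kallisto 0.44.0 pseudoalignment (submitters' processing notes, which name GRCm38.p6) and tximport; no scaling or filter of the table is stated. The annotation release is not given in the sources used here. In the table, 2 names that are calendar dates occur 2 times each.

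The study's own filter was applied, over 10 counts in 2 or more libraries. Size factors came from DESeq2 1.42.0 and TMM factors from edgeR 4.0.16 in R 4.3.3. Other steps used Python 3.11.15, matplotlib 3.10.9, scipy 1.17.1, pandas 2.3.3 and numpy 2.4.6. The pseudocount was 1. Intervals were exact Clopper-Pearson for pairs of counts, exact conditional for ratios of ratios and Wilson for shares, at 95%. The intervals and the 3-count floor reflect counting error only. They may understate even that error, since reads lacked molecular identifiers and the counts are rounded estimates. No test with p-values was run. Positions and lengths came from GENCODE M21 (GRCm38), and promoter windows from RefSeq, matched for 8 of 10 genes (all but *Cldn8* and *Cldn23*). Scripts were tested on simulated data.

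The genes and lists were chosen with earlier results of these data known. Named were all 10 genes, in each tight junction list the 2 highest and 2 lowest at each time and those past 2-fold at both times, and the 3 closest patterns per class. Alternatives were TMM, total count scaling, size factors without mitochondrial genes, a pseudocount of 5, other filters, other lengths, other classes and leaving out each claudin.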

Additional observations from a re-analysis of the deposited data

Results flagged for a closer look

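With 1 library per condition, 3 results moved in opposite directions with butyrate at the 2 times, each counting interval being clear of no change, and the difference between the times was not tested. *Cldn2* differed by 0.32 (log2) after 48 h but by −0.17 after 72 h, and *Cldn8* by 0.55 and −0.26. The 72 h interval of *Cldn8* ended at −0.04, and total count scaling shifted the median of all genes by 0.05 there. Whether that interval is clear of 0 thus depends on the scaling. Of all compared genes, 4.54% were higher at 48 h and lower at 72 h in this way. The ratio of pore-forming to sealing claudin counts, relative to untreated, was 1.20 at 48 h and 0.897 at 72 h. Without *Cldn3* the first was 0.924 and without *Cldn4* the second was 1.12, and the median log2 fold changes of the classes stood in the opposite order, at 0.18 for pore-forming against 0.28 for sealing claudins at 48 h and −0.21 against −0.26 at 72 h.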

How the results depend on the processing

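No paired analysis was possible because the groups compared share only 1 replicate number. A fit with time as a term, which would use the 2 times as replicates, was not run. Of 144 recomputed values of single genes, 134 stayed within their counting intervals, 10 moved beyond them in the same direction, all with total count scaling, and 0 changed sign. That scaling shifted the median of all genes by 0.05 with butyrate at 72 h and by −0.08 between the untreated libraries, where 7 of the 10 values lie. No interval was made for the median of a class. Under every scaling and pseudocount, the butyrate medians of both claudin classes stayed between the median lower and the median upper limit of their genes.

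The ratio of pore-forming to sealing claudins at 48 h (1.20) was 1.29 with *Cldn7* and *Cldn23* counted as sealing, 1.09 without *Cldn2*, 1.33 without *Cldn15*, 1.46 without *Cldn4* and 0.924, the opposite direction, without *Cldn3*. At 72 h (0.897) it was 0.946 with *Cldn7* and *Cldn23* as sealing, 0.699 without *Cldn3* and 1.12, the opposite direction, without *Cldn4*. These sums differ in the genes they hold. Leaving out *Cldn1* or *Cldn8* at either time, or *Cldn2* or *Cldn15* at 72 h, kept the value within its interval. Counts per kb kept both values within their intervals.

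None of the 9 genes passed 2-fold with butyrate in the alternatives run. Of the other tight junction genes, 1 was past 2-fold at each time; at 48 h this was 0 with a pseudocount of 5, 0 with a mean count of at least 50 and 8 with every gene that has a count, and at 72 h 0 and 5 with the last 2 filters. The lost call was *Magi2*. The share of all genes past 2-fold was 5.47% and 20.4% at 48 h and 3.92% and 18.9% at 72 h with these filters, which add or remove genes of low counts. Depth limits *Magi2*, *Jam2*, *Clmp*, *Esam* and *Ildr2* most.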
